A study of Mus musculus with 14 samples.

Results

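H3K4me3, trimethylation of lysine 4 of histone H3, was compared between nicotine-exposed and saccharin-exposed mice that had received the solution before and after birth. The comparison comprised every library carrying the pre- and postnatal label, 3 with nicotine (libraries 1, 3 and 4 by their titles) and 3 with saccharin (libraries 1, 2 and 3), which is 6 of the 14 libraries of the study. All 14881 regions with values in the table of these libraries were used, and the regions were described by their width, by their signal and by the class of the gene they carry. All animals were C57BL/6J mice, an inbred strain, and all libraries came from cerebral cortex at 3 months of age. Per the labels, a solution of nicotine or of saccharin, the sweetener that nicotine is compared with here, was given to pregnant mice from conception, was withdrawn from the pups at 21 days, and the offspring were then left alone until 90 days. Both groups therefore share a maternal treatment and a long untreated period before the tissue was taken. The other 8 libraries are labelled as exposed after birth only, but the treatment text of the labels is the same for all 14 and describes exposure from conception, so that every contrast with them depends on how the groups are named. The labels do not say that the libraries of a group came from separate animals, so p-values here measure the spread between libraries.

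H3K4me3 marks nucleosomes around the start sites of active and poised genes. It is written by the SET1 and MLL methyltransferase complexes, whose shared core includes Wdr5, Ash2l and Dpy30, and it is removed by KDM5 demethylases. Start sites rich in CpG dinucleotides carry the mark most often, because the CXXC domain proteins of the writer complexes bind unmethylated CpG. Broad domains of the mark are known from genes that define a cell's identity, and narrow ones from weak or tissue-restricted starts. In a piece of cortex, a low value at a marker gene can come from fewer cells of a type or from less of the mark per cell, and these cannot be told apart.

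The tables gave a gene for 11388 of the regions, covering 10541 distinct genes. Of the genes with a tested region, 8362 matched at least 1 promoter in a RefSeq promoter table (build GRCm38.p6) and 6639 matched exactly 1. The regions themselves are on build mm9 and no positions were converted, so whether a region covers the promoter was not analysed here. The 250 bases before the start of 4 genes are shown, those with the lowest p values among the regions named below that had 1 listed promoter. The first and the third of them had higher values with nicotine and the other two had lower values. Capitals mark each CpG.

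Zer1: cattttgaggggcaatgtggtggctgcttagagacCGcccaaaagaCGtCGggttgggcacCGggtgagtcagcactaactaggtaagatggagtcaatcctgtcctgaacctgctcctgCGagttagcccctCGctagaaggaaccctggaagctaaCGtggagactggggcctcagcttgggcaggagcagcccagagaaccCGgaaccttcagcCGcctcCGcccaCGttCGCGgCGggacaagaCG

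Ptpn14: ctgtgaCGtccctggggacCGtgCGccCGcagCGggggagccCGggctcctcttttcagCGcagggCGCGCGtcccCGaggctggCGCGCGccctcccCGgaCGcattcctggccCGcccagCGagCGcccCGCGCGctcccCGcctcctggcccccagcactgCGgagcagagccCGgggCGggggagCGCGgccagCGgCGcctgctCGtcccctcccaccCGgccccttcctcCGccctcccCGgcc

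Cnih: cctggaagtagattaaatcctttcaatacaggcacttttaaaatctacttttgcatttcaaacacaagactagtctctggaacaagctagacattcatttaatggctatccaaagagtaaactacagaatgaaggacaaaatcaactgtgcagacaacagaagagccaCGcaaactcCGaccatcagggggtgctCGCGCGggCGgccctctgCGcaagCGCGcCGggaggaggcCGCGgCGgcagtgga

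Klrg2: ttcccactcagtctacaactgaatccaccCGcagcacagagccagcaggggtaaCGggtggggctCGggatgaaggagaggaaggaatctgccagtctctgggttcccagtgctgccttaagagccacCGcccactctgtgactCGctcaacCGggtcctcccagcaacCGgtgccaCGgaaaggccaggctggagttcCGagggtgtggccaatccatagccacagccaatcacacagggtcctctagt

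The Zer1 stretch lies at chr2:30124612-30124861 on the minus strand and holds 15 CpG. The Ptpn14 stretch, at chr1:189728018-189728267 on the plus strand, holds 34. Cnih is listed under the current symbol Cnih1 at chr14:46788358-46788607 on the minus strand, with 13, and Klrg2 lies at chr6:38637240-38637489 on the minus strand, with 9. Both strands were searched for the letters of 4 motifs. These were GGGCGG from the Sp1 site, TATAAA for the TATA box, TGACGTCA and CCGGAAG. The former was in each of the 4 stretches and the latter in none. GGGCGG was present in 63.8% of the 6639 promoters of genes with a tested region and in 32.7% of all 32851 promoters in the table, and the TATA letters in 6.15% and 12.4%. GGGCGG and TATAAA share no letter on the same strand, so their matches cannot overlap there. A match is a description, not a bound site.

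The CpG content of the promoters followed the width of the region. The median was 12 CpG per 250 bases for genes whose region was in the narrowest of 4 equal width classes (611 to 1239 bp), then 14 and 18, and 22 in the widest class (1991 to 4705 bp), against 6 over all promoters in the table. It also followed the mean signal, from 11 in the weakest class to 22 in the strongest. The share with GGGCGG followed the same order, from 52.3% of promoters in the narrowest class to 73.6% in the widest. In CpG content the genes with the lowest p values lay near this background. The median was 15 CpG for the 124 promoters at p under 0.05 with higher values in nicotine. It was 14 for the 99 with lower values, against 16 over the 6639. GGGCGG was in 61.29% of the 124, 66.67% of the 99 and 63.8% of the 6639. The letters CCGGAAG were in 19.35%, 11.11% and 13.36% of them, and no share was tested.

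The values are read counts per region that the authors had adjusted with edgeR, so they are a signal and the raw depth is unknown. Medians per library lay between 52.8 and 56.9 and sums between 1445810 and 2372855. The sums differed mainly through 15 very strong regions, which held 19.1% of the sum in nicotine library 1, 49.7% and 41.9% in nicotine libraries 3 and 4, and 28.8% to 39.9% in the saccharin libraries. The correlation of log2 values between libraries of a group was 0.904, 0.886 and 0.913 for nicotine and 0.926, 0.921 and 0.941 for saccharin. Nicotine library 1 correlated with the saccharin libraries at 0.915, 0.9405 and 0.941, in each case above its correlation with nicotine libraries 3 (0.904) and 4 (0.886). For nicotine libraries 3 and 4 the correlations with saccharin were 0.882 to 0.922. The SD over libraries was larger in nicotine than in saccharin at 65.0% of tested regions, with median SDs of 0.31 and 0.22 on the log2 scale. This held in each width class, from 61.0% of the narrowest to 68.1% of the widest regions, and in each signal class, from 60.5% to 67.8%. Of markers of cortical projection neurons, 8 of 10 had a region, among them Tbr1 at 54.0 to 66.3 and Emx1 at 68.7 to 119.6 over the 6 libraries. Defining markers of oligodendrocytes (6 of 9), astrocytes (4 of 10), endothelium (4 of 7), striatum (4 of 5) and thalamus (3 of 3) also had regions, whereas none of 3 blood markers and 1 of 6 microglia markers did.

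The question of whether any region differed between nicotine and saccharin was put to 14879 regions with a value of at least 1 in at least 3 libraries. By limma with Benjamini-Hochberg adjustment no region passed an adjusted p of 0.05, which is 0% of those tested, and no adjusted p was under 0.987. Before adjustment, 256 regions were higher in nicotine (1.72%) and 278 lower (1.87%) at p under 0.05, together 3.59%. The groups did not overlap at 1331 regions, 8.95% of those tested, with nicotine above saccharin at 668 (4.49%) and below it at 663 (4.46%). For 3 libraries against 3, a lack of overlap has an exact two-sided permutation p of 0.1. About that share of regions would be apart without any difference between the groups. The median 95% interval of a region reached 0.54 log2 units to either side, a 1.45-fold change. This interval is not adjusted for the number of regions, so a larger change can still fail the adjusted test. It reached 0.98 in the narrowest class, a 1.97-fold change, and 0.37 in the widest class, a 1.29-fold change.

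The regions named next were taken from 24, in each width class and direction, the 3 genes with the lowest p among named genes with a mean of at least 20. Since none passed the adjusted test, their order is a description. By limma all 24 had an adjusted p of 0.987. Values are given for nicotine libraries 1, 3 and 4 and then for saccharin libraries 1, 2 and 3, followed by the difference on the log2(value + 1) scale ± SE.

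Among regions of the upper-middle width class (1584 to 1990 bp), the lowest p of all named genes belonged to Zer1, a substrate receptor of a cullin ubiquitin ligase that recognises proteins by their N-terminal glycine. Its region at chr2:29978798-29980534 (mm9) had values of 88.1, 87.5 and 95.2 in nicotine libraries 1, 3 and 4 and 46.8, 51.2 and 53.2 in saccharin libraries 1, 2 and 3. The 3 nicotine libraries lay close together and all above the saccharin libraries. The difference was 0.83 ± 0.20 (SE) on the log2(value + 1) scale, a 1.79-fold ratio of means, 95% interval 0.40 to 1.25. Anxa5, which encodes a calcium-dependent phospholipid-binding protein, had values of 69.1, 88.4 and 91.3 in nicotine and 61.3, 46.5 and 37.8 in saccharin, again without overlap (0.78 ± 0.23). For Ilvbl the values were 46.3, 77.1 and 54.0 against 41.5, 28.5 and 25.9 (0.86 ± 0.28), and saccharin library 1 came close to nicotine library 1.

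In the same width class, Ptpn14 had the lowest p among regions with lower values. This gene encodes a cytoplasmic tyrosine phosphatase that binds the transcriptional coactivator YAP. Its region at chr1:191551251-191553131 (mm9) had values of 36.1, 20.6 and 22.5 in nicotine and 59.3, 52.5 and 55.2 in saccharin. All saccharin values exceeded all nicotine values, and nicotine library 1 was the nearest to them. The difference was −1.09 ± 0.29, a ratio of means of 0.475, 95% interval −1.69 to −0.48. Klrg2, a gene of the killer cell lectin-like receptor family, had values of 53.2, 39.9 and 41.2 against 74.9, 76.7 and 77.5 (−0.77 ± 0.22). Taz, the X-linked gene of tafazzin, which remodels cardiolipin in mitochondria, was weak throughout, at 11.3, 12.8 and 14.7 against 33.3, 28.0 and 30.3 (−1.18 ± 0.38). In the postnatal libraries the difference at Taz was −0.80 ± 0.41, and at Ptpn14 and Klrg2 it was −0.10 ± 0.17 and 0.18 ± 0.14.

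The lower-middle width class (1240 to 1583 bp) gave Cnih, Pcsk1n and Tbrg1 with higher values. Cnih, at chr14:47407020-47408483 (mm9), encodes a cornichon protein that helps load membrane cargo into vesicles leaving the endoplasmic reticulum. Its values were 187.7, 190.4 and 156 in nicotine and 127, 121 and 114 in saccharin, without overlap (0.56 ± 0.16, 1.48-fold). Pcsk1n, which encodes proSAAS, a secretory granule protein that inhibits prohormone convertase 1, had values of 40.6, 74.6 and 63.8 against 34.3, 23.8 and 30.5 (0.96 ± 0.29). Its nicotine library 1 lay closer to the saccharin libraries than to the other two nicotine libraries. Tbrg1 had values of 41.6, 44.97 and 70.7 against 22.9, 31.0 and 28.1 (0.89 ± 0.30).

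Regions with lower values in that class were Atxn1l, Parm1 and D10Wsu52e. Atxn1l encodes a relative of ataxin 1 that acts with the repressor Capicua, and its values were close within each group: 53.1, 49.4 and 45.1 in nicotine and 81.1, 74.1 and 87.4 in saccharin (−0.71 ± 0.21, ratio of means 0.609). Parm1, which encodes a mucin-like membrane protein, had values of 25.7, 12.4 and 15.7 against 38.5, 38.3 and 39.5 (−1.13 ± 0.35). Its saccharin values were nearly equal while the nicotine values were spread. D10Wsu52e, the gene of the tRNA splicing ligase now called Rtcb, had values of 63.5, 52.3 and 58.9 against 93.6, 76.5 and 99.9 (−0.61 ± 0.21). None of these 3 groups of values overlapped.

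The widest class held 3 genes with higher values: Bad, Calm3 and Kbtbd2. Bad encodes a BH3-only protein that promotes apoptosis, and its region at chr19:7024723-7027197 (mm9) had values of 51.9, 123 and 98.2 in nicotine and 39.6, 47.2 and 56.2 in saccharin. Nicotine library 1 lay inside the saccharin range, so the groups overlapped (0.85 ± 0.27). Calm3, 1 of the genes for the calcium sensor calmodulin, had values of 87.1, 98.6 and 109 against 67.6, 65.5 and 65.1 (0.56 ± 0.19, 1.49-fold). Kbtbd2, a BTB-kelch adaptor of a cullin ligase, had values of 204, 227 and 197 against 186, 136 and 135 (0.47 ± 0.16). The saccharin values of Calm3 were nearly equal, whereas at Kbtbd2 saccharin library 1 lay near the nicotine libraries.

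Lower values in the widest class were seen at Zfp36l2, Bmp6 and Cacnb4. Zfp36l2 encodes an RNA-binding protein that shortens the life of mRNAs with AU-rich elements. Its region at chr17:84584680-84586859 (mm9) had values of 78.8, 52.5 and 45.1 in nicotine and 96.8, 102 and 101 in saccharin (−0.80 ± 0.22, ratio of means 0.588). The groups did not overlap, with nicotine library 1 again the closest to saccharin. Bmp6, a bone morphogenetic protein ligand, had values of 27.6, 25.7 and 11.7 against 47.8, 40.3 and 41.9 (−1.05 ± 0.35). Cacnb4, the beta 4 subunit of voltage-gated calcium channels, had values of 22.7, 25.3 and 29.5 against 44.8, 58.1 and 42.3 (−0.88 ± 0.29).

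In the narrowest class the picture was less even. Ano2, a calcium-activated chloride channel, had values of 84.1, 148 and 216 in nicotine and 36.6, 75.3 and 98.0 in saccharin (1.09 ± 0.30). Csda, a cold shock domain protein, had values of 67.0, 158 and 177 against 57.3, 70.3 and 72.0, and Izumo1, the sperm protein required for gamete fusion, had values of 82.1, 178 and 243 against 76.0, 87.4 and 92.4. At all 3 genes nicotine libraries 3 and 4 were high and nicotine library 1 lay within the saccharin range. With lower values, Zcchc4 (41.9, 21.0 and 20.6 against 46.8, 39.2 and 60.1) showed the same overlap through nicotine library 1. Acox3, a peroxisomal acyl-CoA oxidase, had values of 5.57, 14.9 and 18.7 against 19.9, 45.4 and 22.0, without overlap but with 1 high saccharin library.

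**Figure D1:**
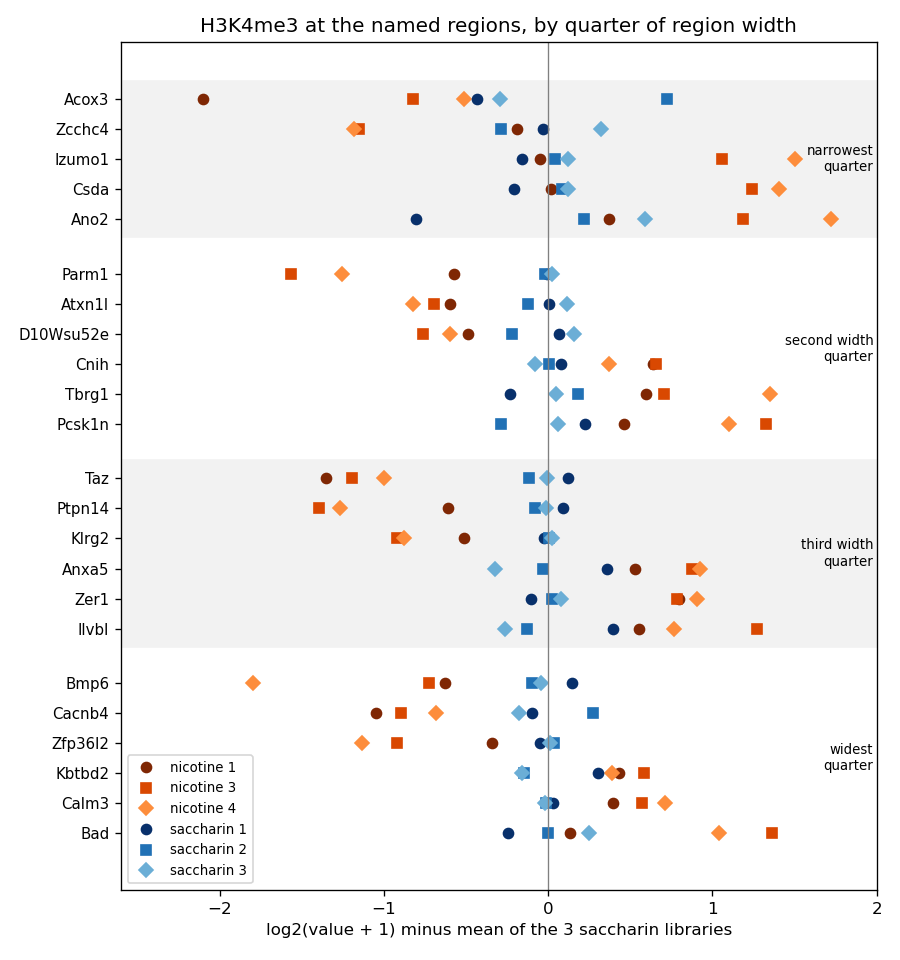
H3K4me3 signal at the named regions, grouped by class of region width, in each of the 6 libraries. The horizontal axis is log2(value + 1) minus the mean of the 3 saccharin libraries, and each symbol is 1 library. In the narrowest class nicotine library 1 lies among the saccharin libraries at Ano2, Csda, Izumo1 and Zcchc4, whereas at Zer1, Atxn1l and Taz the 3 nicotine libraries lie together.

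These 24 regions kept the sign of their difference under each of the 16 alternatives tried. They were chosen for low p in the same libraries, and that choice favours a kept sign. Differences in these libraries were tested region by region against the differences in the postnatal libraries. By a z test on the 14871 regions fitted in both tables, with Benjamini-Hochberg adjustment, no region passed an adjusted p of 0.05 (0%), and 543 had an unadjusted p under 0.05. Because the 24 regions were chosen for their low p in the pre- and postnatal libraries, that choice favours a difference from the postnatal value, and no z test is given for them. The postnatal differences were 0.11 ± 0.12 at Zfp36l2, −0.30 ± 0.20 at Anxa5 and 0.26 ± 0.12 at Kbtbd2. Over the regions fitted in both tables the signs matched at 50.2%, and at the 532 with p under 0.05 here they matched at 50.9%. Of these, 17 also had p under 0.05 in the postnatal libraries, where 1.89% of regions did, and 10 of the 17 had the same sign. Among those 10 were Fermt2, Cacna1i, Rab2a, Homer2 and Kbtbd2 with higher values and Elfn1 and Nfe2l3 with lower values in both, while Hk1, Eif4a2, Rsrc2, Wdr83 and Htra1 differed in opposite directions. These were named after their values were seen.

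By width, the mean log2 level of each class relative to the library's mean was compared between groups with the exact two-sided permutation test, whose smallest possible p with 3 libraries against 3 is 0.1. The narrowest regions stood at −1.79, −1.59 and −1.69 in the nicotine libraries and at −1.41, −1.65 and −1.64 in the saccharin libraries. Only saccharin library 1 lay clearly above the rest, and the groups overlapped (difference −0.13, exact p = 0.4). The widest regions stood at 1.39, 1.28 and 1.32 against 1.21, 1.31 and 1.29 (difference 0.06, exact p = 0.3). As a share of the summed signal without the strongest regions, the narrowest class held 7.11%, 12.3% and 10.5% in nicotine and 11.3%, 8.498% and 9.03% in saccharin. Nicotine libraries were the lowest and the highest of the 6. The widest class held 47.9%, 44.4% and 45.4% against 45.4%, 46.7% and 45.9%. In all, 22 such comparisons were made over width, signal and gene class, and the groups overlapped in each of them (exact p from 0.2 to 1, smallest Benjamini-Hochberg adjusted value 0.786).

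Counts of single regions at an unadjusted p under 0.05 differed by class, although no region in any class passed the adjusted test. In the narrowest class 58 regions were higher and 103 lower in nicotine, in the lower-middle class 74 and 86, in the upper-middle class 61 and 51, and in the widest class 63 and 38. By mean signal the contrast was larger. In the weakest class 29 were higher and 129 lower, which is 0.780% and 3.47% of its 3720 regions, and in the strongest class 83 were higher and 16 lower, 2.23% and 0.430%. The median difference was −0.19 in the weakest class, where 36.6% of regions had a higher mean with nicotine, and 0.04 in the strongest, where 62.6% did.

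That order by signal depended on the kind of scaling of the libraries. Median-ratio scaling, which divides each library by a single factor, kept it. The counts were then 27 higher and 130 lower in the weakest class and 82 and 18 in the strongest. The next 2 scalings level the libraries along the range of signal. They take out such an order by construction, so its loss under them cannot show where it came from. After quantile normalization the counts were 79 higher and 48 lower in the weakest class and 52 and 58 in the strongest. With offsets trended on abundance they were 67 and 49 in the weakest class and 54 and 42 in the strongest. With any single library left out, the weakest class still held more lower than higher regions and the strongest more higher than lower, but the size varied. Without saccharin library 1 the counts were 37 higher and 52 lower in the weakest class and 58 and 18 in the strongest, and without nicotine library 1 they were 126 and 220 and 194 and 166. Without nicotine library 3 they were 13 and 145 and 77 and 15, and without nicotine library 4 they were 16 and 121 and 114 and 16. Without saccharin library 2 they were 27 and 110 and 43 and 3, and without saccharin library 3 they were 20 and 98 and 61 and 8. The same 2 scalings changed the counts by width, which became 112 higher and 38 lower in the narrowest and 34 and 82 in the widest class after quantile normalization, and 94 and 36 and 37 and 69 with the trended offsets. Single libraries changed them too. The narrowest class held 221 higher and 186 lower without nicotine library 1 and 64 and 38 without saccharin library 1. Without any other single library it held more lower than higher. The widest class held more higher than lower whichever library was left out. The low values themselves differed between libraries: the number of regions under 1 was 65 to 161 in the nicotine libraries and 1 to 23 in the saccharin libraries. Among regions with a mean signal of at least 20, the weakest class (1069 regions) held 17 higher and 20 lower at p under 0.05. The strongest class held 90 and 18, the narrowest 45 and 11 and the widest 65 and 39. Why the counts changed with this filter was not tested. In the postnatal libraries the strongest class held 90 higher and 12 lower regions. In the classes below it the counts were 38 and 47, 8 and 60, and, in the weakest, 7 and 19. The postnatal counts were not repeated under the 2 scalings.

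**Figure D2:**
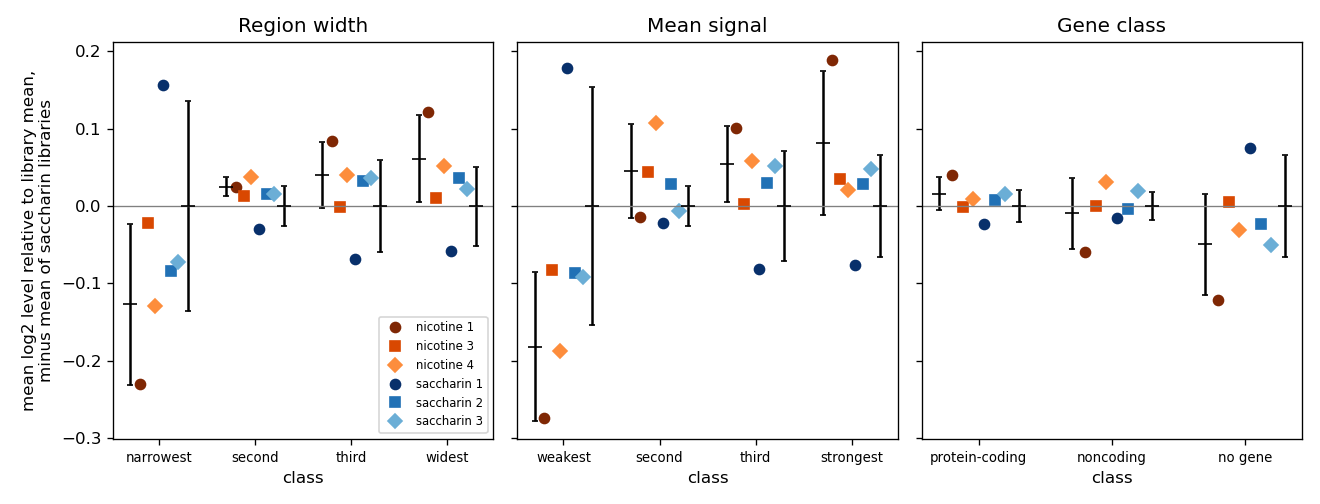
Mean log2 level of each class of region width, mean signal and gene class relative to the library's mean over all tested regions, minus the mean of the saccharin libraries. Each symbol is 1 library and black bars give the mean and SD of the 3 nicotine (left) and 3 saccharin (right) libraries. In the narrowest and the weakest classes nicotine library 1 is the lowest and saccharin library 1 the highest, and the other libraries overlap.

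**Figure D3:**
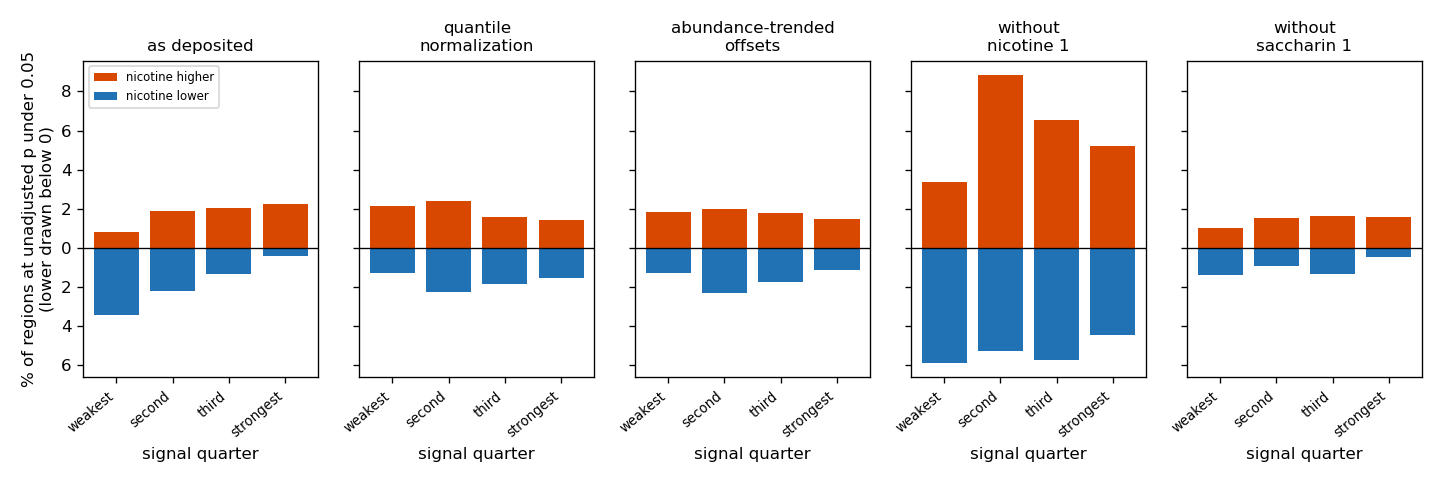
Percentage of regions at an unadjusted limma p under 0.05 in each class of mean signal, with higher values in nicotine drawn upwards and lower values downwards, for 5 settings. As deposited, the strongest class has 83 higher and 16 lower regions and the weakest 29 and 129, after quantile normalization they have 52 and 58 and 79 and 48, and with trended offsets 54 and 42 and 67 and 49.

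By gene class, 11112 tested regions carried a protein-coding transcript, 275 a noncoding transcript only and 3492 no gene. Regions with a protein-coding gene were wider and stronger than those without (median width 1629 against 1373 bp, median signal 60.7 against 34.1). At p under 0.05, 193 protein-coding regions were higher and 182 lower (1.74% and 1.64%). Of regions without a gene, 63 were higher and 90 lower (1.80% and 2.58%), and of noncoding regions 0 and 6 (0% and 2.18%). None of the classes contained a region past the adjusted threshold. The mean log2 levels of the protein-coding class overlapped between the groups, at 0.19, 0.15 and 0.16 in nicotine and 0.13, 0.16 and 0.17 in saccharin (exact permutation p = 0.5).

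Lists of genes were read by the region with the highest mean for each gene, and by the counts and median of their differences beside those of all genes. Over the 10541 genes 5533 had a higher and 5008 a lower mean with nicotine, the median difference was 0.01, and 185 were higher and 158 lower at p under 0.05. No member of any list passed the adjusted test. A count of higher or lower members is a description here, and no list was tested as a set.

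Genes of the mitochondrial respiratory chain had the highest median. Of 60 tested members 46 had higher means with nicotine and 14 lower, the median difference was 0.19, and it lay between 0.12 and 0.27 over the alternatives. By complex, higher means were found at 21 of 25 genes of complex I, the NADH dehydrogenase, 4 of 4 of complex II, the succinate dehydrogenase, 4 of 8 of complex III, 9 of 10 of complex IV, the cytochrome c oxidase, and 8 of 13 of ATP synthase. Only 2 of the 60 had an unadjusted p under 0.05. These were Cox6a1, a complex IV subunit, at 159, 140.0 and 177 in nicotine and 117, 133 and 115 in saccharin (0.38 ± 0.16), and Uqcrc2, a complex III core subunit, at 93.8, 90.5 and 126 against 73.9, 74.4 and 78.6 (0.43 ± 0.19). Neither overlapped between groups. Over all genes the groups were apart at 490 with nicotine higher (4.65%) and 412 with nicotine lower (3.91%). In this list they were apart at 5 of 60, all with nicotine higher, the others being Cox5a (201, 230.1 and 197 against 164, 175 and 177), Atp5j2 (47.4, 58.2 and 49.1 against 36.4, 41.4 and 38.9) and Ndufc1 (30.3, 33.0 and 35.3 against 28.1, 24.7 and 29.3). As a whole the list's summed signal was 4194, 4716 and 5008 in nicotine and 3997, 4302 and 4147 in saccharin. Nicotine library 1 lay between the saccharin libraries, so the sums overlapped. In the postnatal libraries the median of the list was −0.04. Uqcrc2, Cox5a, Atp5j2 and Ndufc1 were singled out after their values were seen.

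Other housekeeping groups had medians nearer to that of all genes. Of autophagy genes 25 of 34 had higher means (median 0.09), led by Gabarap, an ATG8 protein of the autophagosome membrane. Gabarap had values of 42.5, 65.9 and 64.8 in nicotine and 30.2, 35.6 and 27.0 in saccharin, without overlap (0.86 ± 0.28). Of apoptosis regulators 17 of 28 had higher means (median 0.10), and the groups were apart at 3 with higher and 5 with lower values, where 4.65% and 3.91% of all genes were. Its members with the lowest p values differed in direction: Bad was higher, and Bax, which permeabilises the mitochondrial outer membrane, had values of 72.0, 79.1 and 63.8 against 91.6, 97.6 and 115 (−0.49 ± 0.19). Proteasome subunits (23 of 36 higher, median 0.08), cytosolic ribosomal proteins (41 of 69, 0.08), mitochondrial ribosomal proteins (32 of 55, 0.04) and splicing factors (42 of 65, 0.05) had positive medians. For the latter 2 the median changed sign under some alternatives, with lowest values of −0.05 and −0.04. The zinc finger proteins had 188 of 331 higher (median 0.06), 9 higher and 7 lower at p under 0.05.

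Genes of the H3K4 methyltransferase complexes and of H3K4 demethylases were examined for their own regions. Of 15 tested members of the H3K4 methyltransferase complexes 10 had higher means (median 0.14), including all 3 core subunits Wdr5, Ash2l and Dpy30, but 1 of 3 catalytic subunits. Ash2l had values of 109, 144 and 138 in nicotine and 93.7, 113 and 115 in saccharin (0.28 ± 0.18), with nicotine library 1 inside the saccharin range. Hcfc1, an X-linked accessory subunit, had the lowest p of the lower members, at 45.4, 46.9 and 56.9 against 74.9, 66.0 and 62.0 (−0.44 ± 0.22), without overlap. Of 8 listed demethylases 6 were tested, namely Kdm1a, Kdm2a, Kdm2b and the KDM5 genes Kdm5a, Kdm5b and Kdm5c. Of these 6, 5 had higher means (median 0.18). The lowest p was at Kdm2b, a CXXC domain protein, at 196, 223 and 146 against 173, 130.4 and 156 (0.28 ± 0.17). None of the 15 or the 6 had an unadjusted p under 0.05.

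Nicotine acts on pentameric acetylcholine receptors, of which those built from Chrna4 and Chrnb2 bind it with high affinity and those of Chrna7 with lower affinity. Of the 14 tested genes of nicotinic and cholinergic signalling 9 had higher means (median 0.05) and none had a p under 0.05. Chrna4 had values of 52.2, 51.2 and 37.3 in nicotine and 48.8, 35.9 and 30.7 in saccharin (0.29 ± 0.28). Chrnb2 had values of 27.4, 30.9 and 43.2 against 43.6, 23.98 and 34.0 (0.01 ± 0.32), and Chrna7 had 116, 60.5 and 60.8 against 81.1, 84.8 and 51.3 (0.09 ± 0.26). All 3 overlapped between groups, and the sign at Chrnb2 and Chrna7 changed when single libraries were left out, namely nicotine library 4 or saccharin library 2 for Chrnb2 and nicotine library 1 or saccharin library 3 for Chrna7. Ly6h, a modulator of nicotinic receptors, had the lowest p of the higher members (0.26 ± 0.17). Among the lower members it was Chrna3, a subunit gene of ganglionic receptors (−0.67 ± 0.50), and, of those with a mean of at least 20, Chrna5 (−0.30 ± 0.38).

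Neuronal gene groups lay close to all genes. The medians were 0.03 for glutamate receptors (11 of 19 higher), 0.05 for GABA receptors and interneuron genes (14 of 25), 0.02 for dendrite and spine regulators (26 of 51), 0.02 for presynaptic release genes (23 of 44), 0.01 for immediate early genes (13 of 24) and −0.01 for markers of projection neurons and layers (9 of 19). Each of these 6 medians changed sign under at least 1 alternative. Within them, Rac1, a small GTPase that drives actin assembly in spines, had values of 223, 212 and 183 in nicotine and 149, 156 and 162 in saccharin, without overlap (0.40 ± 0.15). Gria3, an AMPA receptor subunit, had values of 35.0, 33.6 and 58.0 against 22.9, 28.4 and 20.2 (0.77 ± 0.32), and Camk2a, the alpha subunit of calcium/calmodulin-dependent kinase II, had 84.4, 88.0 and 72.6 against 65.5, 57.6 and 58.7 (0.42 ± 0.20). Both were free of overlap. Among immediate early genes, Homer1 lay higher (0.27 ± 0.14) and Dusp1, a MAP kinase phosphatase, lower (−0.28 ± 0.15), each without overlap. Of the MEF2 factors, Mef2c had values of 50.0, 99.1 and 151 against 82.1, 63.5 and 63.8 (0.39 ± 0.28), with nicotine library 1 the lowest of all 6.

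Genes of other brain regions had the lowest median among the lists with at least 6 tested genes. Of 20 tested markers of striatum, thalamus and choroid plexus 18 had lower means with nicotine and 2 higher, with a median of −0.35 that lay between −0.57 and −0.19 over the alternatives. By region these were 9 of 10 striatal, 5 of 6 thalamic and 4 of 4 choroid plexus genes. The other 14 listed markers had no tested region, among them Drd2, Ttr, Folr1 and Otx2. Regions of the 20 were narrower and weaker than those of all genes (median width 1477 against 1656 bp, median signal 28.1 against 64.7). Over all regions lower values were also more frequent in the weakest class, and the part of signal level in this list was not tested. The summed signal of the 20 was 740, 703 and 629 in the nicotine libraries and 809, 791 and 802 in the saccharin libraries, so the sums did not overlap. The median log2 level over the 20 genes, relative to the library, was however −0.56 in nicotine library 1, the highest of the 6, against −1.32 and −1.21 in nicotine libraries 3 and 4 and −0.97 to −0.79 in saccharin. Sums without overlap were also found for endothelial and mural markers, lower with nicotine. Higher sums with nicotine, without overlap, were found for H3K4 demethylases (859 to 909 against 767 to 826) and GABA receptors and interneuron genes (1796 to 1861 against 1596 to 1767). Those of monoamine and opioid genes were also apart, but by a very small gap (1226.17 to 1257 against 1181 to 1225.91). In that list 10 of 21 members had higher means, and the median was −0.01. No sum was tested, and 3 libraries against 3 cannot reach an exact permutation p under 0.1. At p under 0.05 there were 2 members of the list from other brain regions, both lower. Tcf7l2, a Wnt effector abundant in thalamic neurons, had values of 34.1, 40.7 and 26.5 in nicotine and 49.9, 56.1 and 45.1 in saccharin (−0.58 ± 0.27). Zic1, a zinc finger transcription factor, had values of 4.71, 7.38 and 6.88 against 33.2, 15.6 and 26.0 (−1.78 ± 0.49). Neither overlapped, nor did the choroid plexus gene Lmx1a at 13.3, 12.6 and 11.8 against 18.8, 21.1 and 22.4. Zic1 and Lmx1a were singled out after their values were seen. In the postnatal libraries the median of the list was 0.01. The striatal markers Drd1a (27.8 to 37.3) and Ppp1r1b (39.6 to 59.6) had signal in all 6 libraries, and 1 member, Six3, was under 1 in a library. The part of tissue composition in the other results was not tested.

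Homeobox and patterning factors, which set up regional identity during development, had lower means at 78 of 115 genes (median −0.11, −0.25 to −0.01 over the alternatives), with 4 lower and 0 higher at p under 0.05, and a postnatal median of 0.08. Their regions were narrower and weaker than those of all genes (median width 1449 against 1656 bp, median signal 25.6 against 64.7), the range in which lower values were also more frequent over all regions. Tbx18, a T-box factor also found in mural cells, had values of 20.8, 33.0 and 15.7 in nicotine and 34.4, 30.3 and 51.0 in saccharin (−0.74 ± 0.35), with overlap. Imprinted genes had lower means at 21 of 32 (median −0.11, −0.14 to −0.07), with the paternally expressed hydrolase gene Mest at 54.0, 44.7 and 56.0 against 66.6, 54.0 and 84.3 (−0.38 ± 0.23) and Kcnq1 in the other direction (0.47 ± 0.27). These had the lowest p among imprinted genes with a mean of at least 20, and 1 weaker gene, Nnat, had an unadjusted p under 0.05 with higher values (0.99 ± 0.47). Nnat was named after its value was seen. Endothelial and mural markers had lower means at 6 of 9 (median −0.06), with sums of 429, 416 and 388 against 442, 446 and 495. Astrocyte markers had higher means at 4 of 6 (0.16), oligodendrocyte markers at 7 of 12 (0.06) and microglia and macrophage markers at 1 of 4 (−0.43), and the summed signal of each of these 3 lists overlapped between groups.

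**Figure D4:**
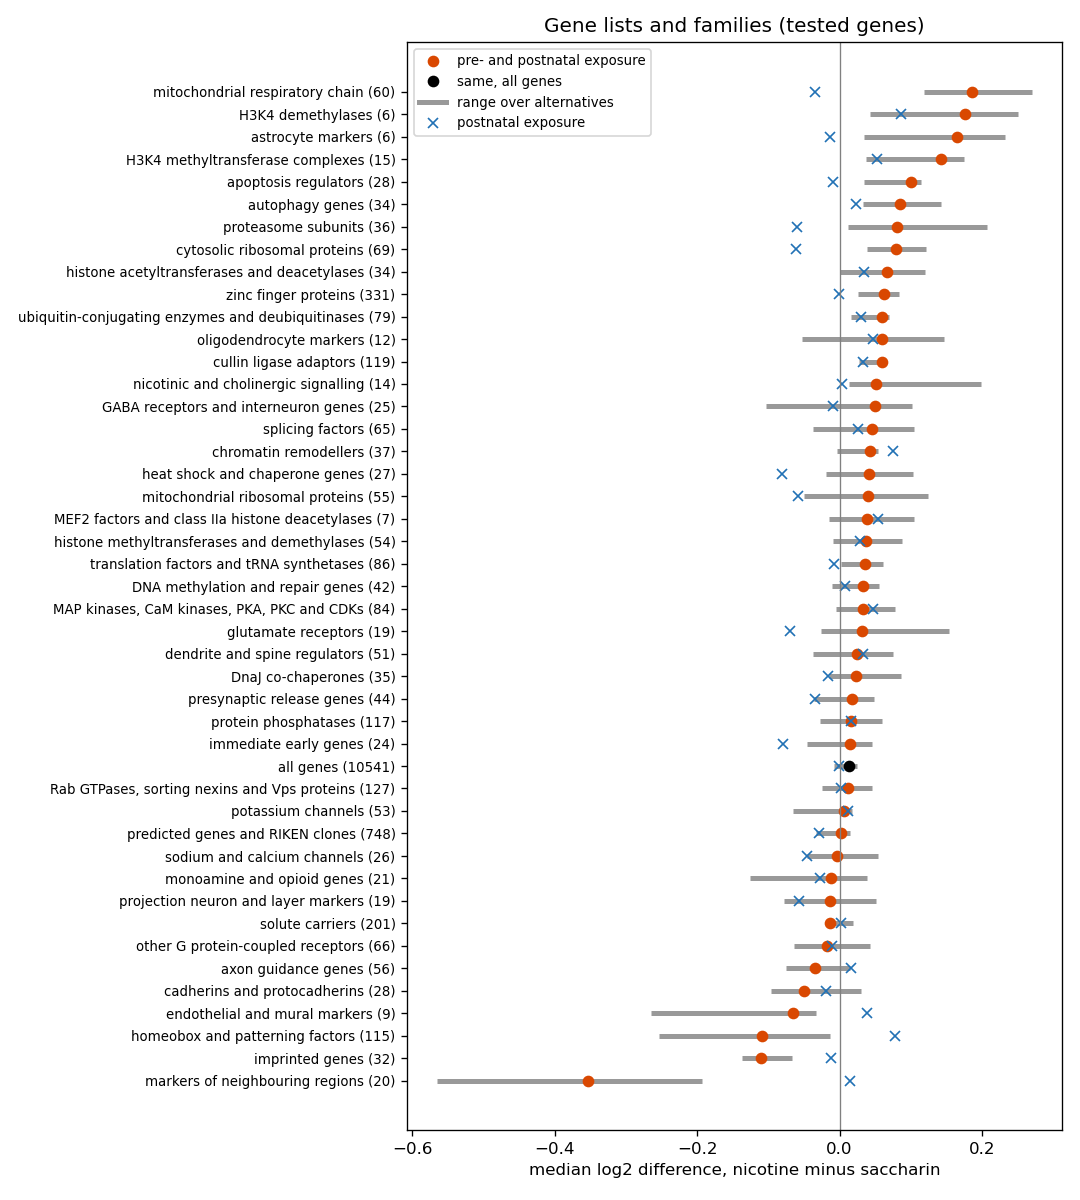
Median log2 difference between nicotine and saccharin for each gene list and family with at least 6 tested genes, with the number tested in parentheses. Orange points are the pre- and postnatal libraries, grey bars the range of that median over the alternatives, blue crosses the postnatal libraries and the black point all genes. The respiratory chain list lies highest, at 0.19, and the markers of neighbouring regions lowest, at −0.35.

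Of the 6 libraries, leaving out nicotine library 1 gave regions past the adjusted threshold and leaving out any of the others gave none. Without it, 17 of 14881 regions (0.114%) passed by limma with Benjamini-Hochberg adjustment, 16 with higher and 1 with lower values in the remaining nicotine libraries, and 1690 had an unadjusted p under 0.05. Of the 17, 11 were in the narrowest width class, 12 in the strongest signal class, and 8 carried a gene: Zfp36l2, Bad, Acacb, Auts2, Ano2, Csda, Izumo1 and Ank1. They did not form 1 pattern over the libraries. At 10 of them saccharin library 1 was the lowest of the 6, and at 5 nicotine library 1 was. Ank1, the gene of a spectrin-binding ankyrin, belonged to the latter, with values of 202, 1439 and 924 in nicotine and 689, 484 and 758 in saccharin. The share of signal in the 15 very strong regions was also lowest in nicotine library 1 and highest in nicotine library 3, and its part in these values was not tested. Auts2 had 80.2, 234.2 and 272 against 94.7, 109 and 98.1, and Acacb, the acetyl-CoA carboxylase of the mitochondrial membrane, had 168, 322 and 425 against 162, 209 and 170.

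Most of the 17 were regions with much more signal here than in the postnatal libraries. Relative to the median region of each library, the signal was over 2 times that of the postnatal libraries at 15 of the 17 and at 4.81% of all tested regions. The ratio was 7.03 at Ano2, 6.10 at Izumo1, 5.69 at Csda and 5.40 at Auts2, all with widths of 894 to 979 bp. This ratio averages all pre- and postnatal libraries, so the high nicotine values through which most of the 17 passed also raise it. Its median over all regions was 0.96. The 2 others were Bad (1.36) and Zfp36l2 (0.801), both of the widest class. Zfp36l2 was the only region of the 17 with lower values in nicotine, and its groups did not overlap with nicotine library 1 included.

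**Figure D5:**
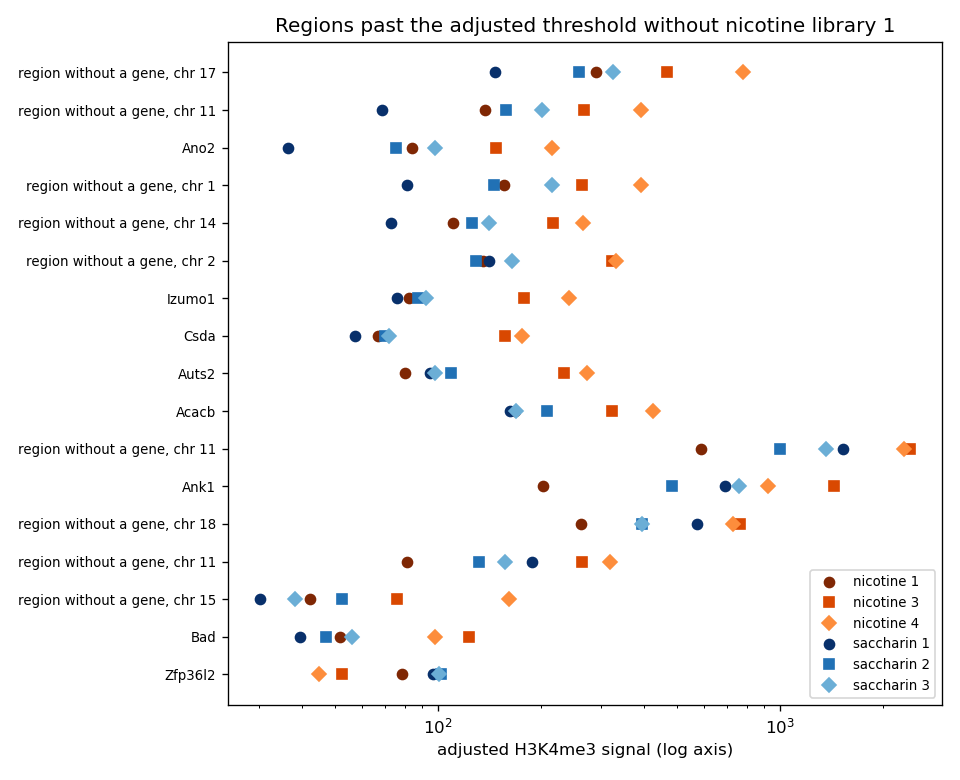
Adjusted H3K4me3 signal (log axis) in each of the 6 libraries at the 17 regions that passed the adjusted threshold when nicotine library 1 was left out, ordered by the ratio of their signal to that in the postnatal libraries, with the highest ratio at the top. Each symbol is 1 library. Nicotine libraries 3 and 4 are the highest of the 6 at the 16 regions with higher values, and at Zfp36l2, at the bottom, the 3 nicotine libraries are the lowest.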

How the data were processed

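Mouse cortex was profiled by H3K4me3 ChIP-seq, and the labels gave the groups. What the authors deposited is a signal per region, namely read counts they had adjusted with edgeR on build mm9, per the submitters' processing notes. Aligner, peak caller, filters and versions were not given in the sources at hand. Of 19203 rows in each table, 4322 repeated regions with empty values and were left out. Of 17 gene symbols turned into dates, 16 were recovered through transcript identifiers.

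Because the values were not whole counts, limma 3.58.1 with trend (R 4.3.3) was run on log2(value + 1) for regions with at least 1 in at least 3 libraries (the size of the smaller group, so 2 where a library was left out), two-sided, with Benjamini-Hochberg adjustment and a threshold of 0.05. Fold changes on this scale understate those of low regions. The postnatal libraries, in pairs differing by little more than counting noise, were averaged to 2 values per group and fitted separately. Class levels were compared with the exact permutation test over libraries. Width and signal classes are 4 groups of near-equal size. The scripts were tested on simulated data. The regions and lists were chosen with earlier results of these data known. Named regions are, among named genes with a mean of at least 20, the 3 with the lowest p in each width class and direction, the member of each list or family with the lowest p in each direction, and Ash2l, Mef2c, Chrna4, Chrnb2 and Chrna7. Of the 24 regions chosen by width class, 1 is not reported here. Alternatives were another pseudocount, filters, scalings, a covariate, no trend, a replicate block and each library left out. Depth is unknown, so no counting interval is given. Figures were drawn with matplotlib 3.10.9.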

Additional observations from a re-analysis of the deposited data

How the results depend on the processing

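No region passed the adjusted threshold except 1 when limma was run without trend and 17 without nicotine library 1. When single libraries were left out, regions past the adjusted threshold thus numbered 0 to 17 and those at an unadjusted p under 0.05 numbered 352 to 1690. The titles share the numbers 1 and 3 between groups, but nothing says that they pair animals, and same-numbered libraries had correlations of their deviations of −0.106 and −0.0982. With these numbers as a replicate block 0 regions passed and 284 had p under 0.05.

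In none of the 22 class comparisons were the groups apart, so the changes of sign below concern differences within the spread between libraries. Differences in mean log2 level (nicotine minus saccharin) that changed sign were, after quantile normalization, 0.055 narrowest, −0.0064 lower-middle, −0.025 upper-middle, −0.023 widest, −0.014 strongest, −0.013 stronger-middle, 0.019 weakest, 0.012 gene-free and −0.0037 protein-coding. With trended offsets they were 0.037 narrowest, −0.0089 lower-middle, −0.017 upper-middle, −0.012 widest, −0.00044 strongest, 0.0068 gene-free and −0.0019 protein-coding, and with a mean signal of at least 20 they were 0.041 narrowest, −0.0053 lower-middle, −0.015 upper-middle, −0.011 weaker-middle and −0.0022 stronger-middle. Differences in percentage points of summed signal that changed sign were 0.22 lower-middle, 0.21 weaker-middle, −0.31 strongest and 0.12 weakest after quantile normalization, and 0.19 lower-middle, 0.070 weaker-middle, −0.23 strongest, 0.013 stronger-middle and 0.15 weakest with trended offsets. They were −0.16 narrowest, 0.24 widest, −0.0094 gene-free and 0.044 protein-coding with the share in the strongest regions as covariate, 0.080 weaker-middle with classes from the postnatal table, and −0.44 narrowest, 0.067 upper-middle, 0.50 widest, −0.16 gene-free and 0.21 protein-coding with the replicate block. With single libraries left out, the percentage point differences ranged over −0.80 to 1.79 narrowest, −0.11 to 0.065 lower-middle, −0.75 to 0.20 upper-middle, −1.08 to 0.62 widest, −0.57 to 0.25 weaker-middle, −0.68 to 0.095 stronger-middle, −0.52 to 1.48 gene-free and −1.46 to 0.55 protein-coding, and the log2 difference over −0.030 to 0.016 noncoding. Most of the 110 named regions were chosen for a low p, which favours a kept sign. Under every one of the 16 alternatives 103 of them kept it. The others reached 0.047 at Kdm1a, 0.098 at Mef2a, −0.039 at Mef2c, 0.054 at Rab3b and −0.39 at Chrnb2 with the block and 0.013 at Mef2a and −0.040 at Chrnb2 with the covariate, and leaving out libraries gave −0.64 to 0.009995 at Chrna5, −0.17 to 0.076 at Mef2a, −0.21 to 0.21 at Chrnb2 and −0.22 to 0.25 at Chrna7. Depth behind each value is unknown. The causes of these changes were not tested.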

Other observations

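The regions given here were chosen after their values were seen. At a region without a gene on chromosome 10 (119738639 to 119739392, mm9, 753 bp) all 3 nicotine libraries were listed at 0 to rounding, and the saccharin libraries had 8.31, 5.17 and 7.87. This was the 1 region past the adjusted threshold in limma without trend (adjusted p = 0.0242) against an adjusted p of 0.987 with trend, and its postnatal means were 5.08 and 1.36 with nicotine and 2.07 and 2.28 with saccharin. A region without a gene on chromosome 19 (15188497 to 15189331) had lower values in both exposures, with differences of −2.61 ± 0.88 here and −2.53 ± 0.81 in the postnatal libraries. Xist, the RNA that silences 1 X chromosome in female cells, had a region in every library, with values of 46.4, 56.6 and 59.9 in nicotine and 40.6, 66.55 and 29.5 in saccharin.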
